A study of Rattus norvegicus with 84 samples.

Results

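The CA1 and CA3 subregions of the hippocampus were compared within 12 young adult rats. The data are 24 of the 84 RNA sequencing libraries of the series, 12 from CA1 and 12 from CA3, chosen by the animal number and subregion in the library titles (animals 3337 to 3342 and 3593 to 3598) and paired by rat. All rats were male F344, an inbred strain used in ageing research, and were 5 months old. No treatment or genetic change is named in the labels. The series also holds the dentate gyrus (DG) of these rats and the same 3 subregions of 16 rats aged 12 months, and its title names spatial pattern separation and its change with age. The hippocampus of a single hemisphere was dissected, the subregions were frozen separately, and polyA RNA was sequenced. A library is thus bulk tissue that holds pyramidal cells, interneurons, glia, vessels and any neighbouring tissue that came with the cut.

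CA3 pyramidal cells receive mossy fibres from dentate granule cells, are wired to one another by recurrent collaterals, and send Schaffer collaterals to CA1. CA1 pyramidal cells take these and a direct entorhinal input, and form the main output of the hippocampus through the subiculum. The excitatory cells of both fields are glutamatergic pyramidal neurons, told apart by transcription factors, cell adhesion molecules and receptor subunits.

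The deposited values are gene counts divided by a size factor of each library. The 24 columns were rescaled together by the median of ratios over the 15346 gene symbols found in both tables, and the results are called rescaled counts below. The CA1 libraries held 14.4 to 21.5 M reads (median 18.5) and the CA3 libraries 16.0 to 21.6 M (median 19.3). Among the 66 pairs of libraries within a subregion, chi-square per degree of freedom was at least 8.16 in CA1 and 5.66 in CA3, so no pair agreed within sampling noise. Genes of the mitochondrial genome took 8.54 ± 2.43% of reads in CA1 and 7.59 ± 1.56% in CA3 (SD, n = 12 each). The share was higher in CA1 in 10 of 12 rats, and the difference did not pass a 2-sided exact permutation test that flips the sign within rats (p = 0.0771, smallest possible p = 0.000488).

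A difference is given as CA1 minus CA3 on the scale log2(rescaled count + 1). Its standard error (SE) and adjusted p are those of limma with the rat as a block. This SE is moderated by the spread of other genes and is not the plain SE over the 12 rats. A gene was called at an adjusted p under 0.05. Of 14594 genes tested, 6935 were called (47.5%), 3446 of them higher in CA1 (23.6%) and 3489 lower in CA1 (23.9%). The counts of called genes in each list below are to be read beside these shares. Most differences were small, with a median size of 0.37 among called genes, and 74.4% of the calls were under 1.5-fold. At 2-fold or more, 286 genes were higher (1.96%) and 423 were lower in CA1 (2.9%), and at 4-fold or more the counts were 45 and 122. All 12 CA1 libraries lay above all 12 CA3 libraries for 503 genes (3.45%) and below them for 606 (4.15%). In every one of the 12 rats, 1261 genes were higher (8.64%) and 1334 were lower in CA1 (9.14%). With the size factors as deposited, which the authors set in each table separately, the split was 2375 higher and 5038 lower in CA1, against a median shift over all genes of -0.0944. A bulk difference may come from fewer cells of a type or from less RNA per cell, which cannot be told apart here.

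**Figure D1:**
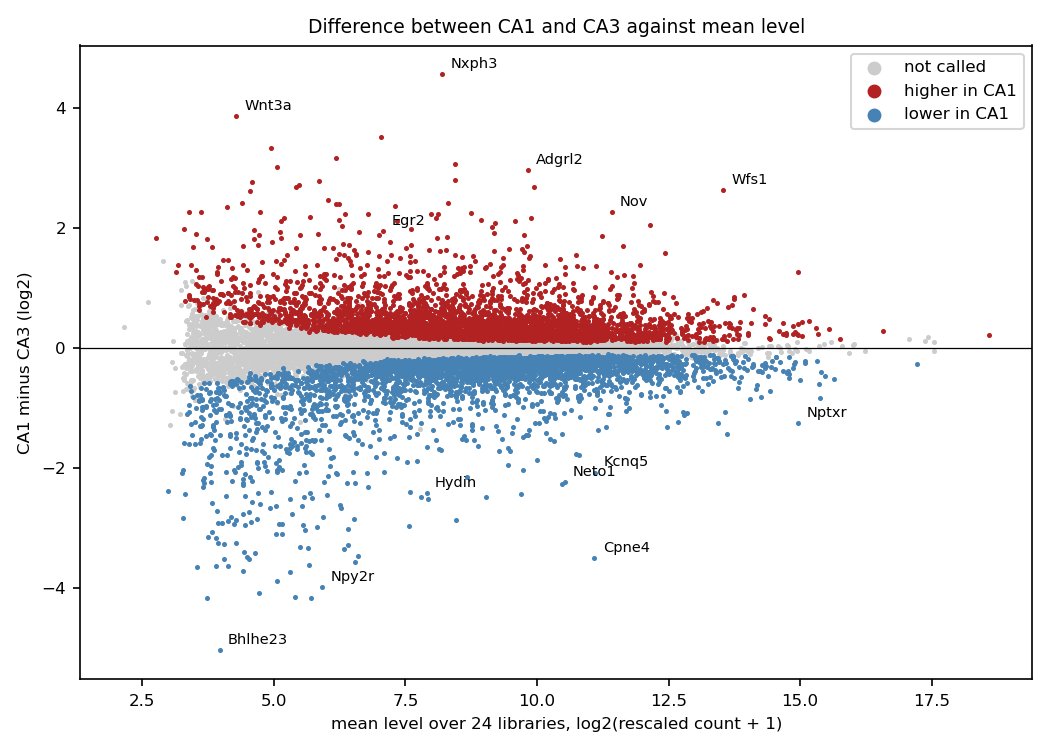
Difference between CA1 and CA3 (log2, CA1 minus CA3) against the mean level of each of the 14594 genes over 24 libraries (log2 of the rescaled count + 1). Each point is 1 gene, coloured where it was called. The called genes are spread over all levels, and the longest tail is of genes lower in CA1 at low mean levels, where Bhlhe23 stands at -5.03.

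Genes that mark CA1 pyramidal cells were higher in the CA1 libraries. The marker lists were chosen with earlier results of these data known, so they are no independent check of the labels. All 12 tested CA1 markers were called higher in CA1, with a median difference of 2.12, beside -0.0071 over all genes, and for 10 of them the groups did not overlap. Wfs1, which encodes the endoplasmic reticulum protein wolframin, ranged from 19201 to 36550 rescaled counts in CA1 (median 29845) and from 2470 to 7661 in CA3 (median 5047). Pou3f1, a POU-domain transcription factor, ranged from 1887 to 3563 in CA1 (median 2492) and from 189 to 768 in CA3 (median 362). Both were higher in CA1 in all 12 rats, with no overlap between the groups, at differences of 2.63 ± 0.17 (SE) and 2.69 ± 0.15. Mpped1 differed by 2.06 ± 0.14. Ndst4, an enzyme that modifies heparan sulphate chains, ranged from 285 to 676 in CA1 (median 457) and from 18.3 to 75.9 in CA3 (median 34.7). The weakest markers were Crym, at 0.25 ± 0.06, and Dcn, at 0.72 ± 0.14, whose groups overlapped. Dcn was also on the list of meningeal fibroblast markers, of which 3 of 10 were called higher and 3 lower in CA1.

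The gene with the smallest p among those higher in CA1 was Nov (Ccn3 in RefSeq), which encodes a secreted matricellular protein. It ranged from 4821 to 7506 rescaled counts in CA1 (median 6191) and from 954 to 1651 in CA3 (median 1234). Every CA1 library was above every CA3 library, and the difference was 2.27 ± 0.08 (adjusted p = 1.66e-13, limma). Nxph3, a neurexophilin that binds alpha-neurexins, ranged from 631 to 2351 in CA1 (median 1572) and from 31.7 to 104 in CA3 (median 62.2). Its difference of 4.57 ± 0.20 was the largest among the called genes higher in CA1 that had a mean of at least 50. Adgrl2 encodes latrophilin-2, an adhesion receptor which in mouse CA1 sits on the distal dendrites that meet entorhinal axons. It ranged from 2027 to 2894 in CA1 (median 2621) and from 161 to 506 in CA3 (median 336), a difference of 2.97 ± 0.15. Others with the smallest p were the LIM-domain cofactor Ldb2 (2.15), the circadian transcription factor Npas2 (1.66), its relative Bhlhe40 (1.49), the growth factor binding protein Igfbp4 (2.13), the matrix protease Mmp9 (2.41), the acid-sensing channel Asic1 (1.13) and Cadps2, a priming factor of dense-core vesicles (1.71). These 7 differences also came without overlap between the groups. The secreted signals Wnt3a (3.87), Nts, the precursor of neurotensin (3.07), and the cytokine Clcf1 (3.02) were among the largest. Wnt3a was low, with a median of 74.7 in CA1 and 6.48 in CA3.

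CA3 markers showed the reverse. Of 14 tested, 12 were called lower in CA1, 1 was called higher in CA1 (the cadherin Cdh24, 0.59 ± 0.09) and Coch was not called (0.33 ± 0.14, adjusted p = 0.06). The median difference was -1.39, and for 11 markers all CA1 libraries were below all CA3 libraries. A marker called lower in CA1 was also on the list for thalamus and habenula. In that list 2 of 6 tested genes were called higher and 2 lower in CA1. Kcnq5, a subunit of the M-type potassium channel, had the smallest p of all genes. It ranged from 882 to 1254 rescaled counts in CA1 (median 1099) and from 4117 to 5136 in CA3 (median 4382), a difference of -2.07 ± 0.05 (adjusted p = 2.42e-15, limma). Grik4, the kainate receptor subunit GluK4, ranged from 480 to 923 in CA1 (median 633) and from 2574 to 3530 in CA3 (median 3070). Cpne4, a calcium-dependent membrane-binding copine, ranged from 417 to 1218 in CA1 (median 607) and from 6414 to 8286 in CA3 (median 7278). Neither gene's groups overlapped, and the differences were -2.25 ± 0.08 and -3.49 ± 0.12. Npy2r, a receptor of neuropeptide Y, was at 0 to 59.8 in CA1 (median 19.6) and 144 to 337 in CA3 (median 247). Nectin3, an adhesion molecule of the contacts between mossy fibres and CA3 dendrites, ranged from 44.8 to 136 in CA1 (median 93.2) and from 235 to 383 in CA3 (median 297).

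**Figure D2:**
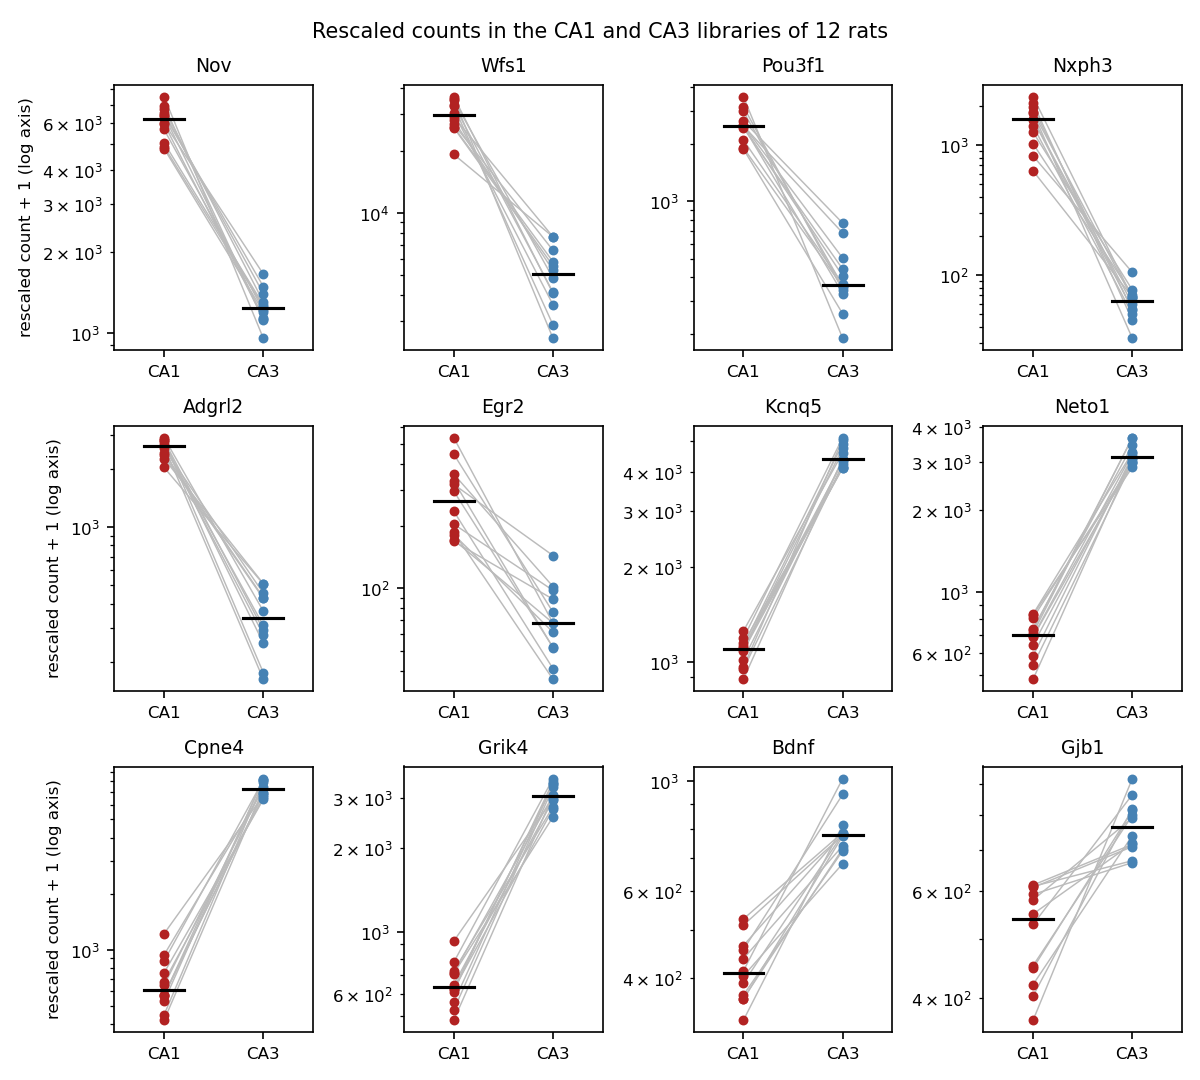
Rescaled counts + 1 (log axis) of 12 genes in the CA1 libraries (left, red) and CA3 libraries (right, blue). Each grey line joins the libraries of 1 rat and each black bar is a median. For Nov, Wfs1, Pou3f1, Nxph3, Adgrl2 and Egr2 every CA1 point is above every CA3 point, for Kcnq5, Neto1, Cpne4, Grik4, Bdnf and Gjb1 every CA1 point is below. These 12 genes are not typical. Of all genes tested, 3.45% had every CA1 library above every CA3 library and 4.15% below.

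Another marker of CA3, Homer3, a scaffold of metabotropic glutamate receptors, differed by -1.86. Outside the marker list, the genes lower in CA1 with the smallest p included Neto1, an auxiliary protein of kainate receptors (-2.23), the mitochondrial carrier Ucp2 (-1.76), the active zone protein Erc1 (-1.09), Brinp2 (-1.36), the sulphatase Sulf2 (-1.31) and the cell cycle protein Ccnd2 (-1.52). Ucp2 ranged from 789 to 1153 rescaled counts in CA1 (median 926) and from 2735 to 3689 in CA3 (median 3103). The transcription factor Bhlhe23 was at 0 to 6.85 in CA1 (median 2.05) and 65.8 to 120 in CA3 (median 90.6). These counts were few in CA1, so its difference of -5.03 ± 0.29 rests on near-zero values. Tacr2, the neurokinin-2 receptor, stood likewise at 0 to 7.40 in CA1 (median 3.54) and 45.5 to 84.7 in CA3 (median 52.5).

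Markers of the neighbouring fields were present in both groups of libraries. CA2 lies between CA1 and CA3, and 5 of 8 tested CA2 markers were called lower in CA1 and 0 higher in CA1. In rats 3337 to 3342 alone 2 were called higher and 5 lower. In rats 3593 to 3598 alone the counts were 0 and 5. Amigo2 ranged from 210 to 282 rescaled counts in CA1 (median 226) and from 527 to 810 in CA3 (median 638). Cacng5 and Pcp4 were lower in CA1 by 1.68 and 1.18 (log2). Rgs14, a CA2-enriched signalling regulator, ranged from 3742 to 5820 in CA1 (median 4522) and from 3579 to 5666 in CA3 (median 4239), with the groups overlapping. The sum over the CA2 list was between 8136 and 12636 in CA1 and between 10914 and 12609 in CA3. The part of CA2 tissue in the differences between CA1 and CA3 was not tested.

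Dentate granule markers did not separate CA1 from CA3: 1 of 8 was called higher in CA1 (Sema5b) and 1 lower in CA1 (Maml2). When DG libraries of the same rats were rescaled together with them, Prox1, which specifies granule cells, had medians of 605 in CA1, 762 in CA3 and 3459 in DG. C1ql2, a synaptic organizer made by granule cells, had medians of 638 in CA1, 731 in CA3 and 8134 in DG. It varied between libraries, from 124 to 2248 in CA1 and from 377 to 1626 in CA3. Sema5b, though on the list, was lowest in DG, with medians of 487 in CA1, 182.5 in CA3 and 119 in DG. Among markers of hilar mossy cells 2 of 6 were called higher and 3 lower in CA1, with Nmb, the peptide neuromedin B, furthest apart at -2.12 ± 0.23. Of 8 markers of subiculum and deep cortex, 6 were called higher in CA1, led by Nts and the transcription factor Fezf2 (1.30 ± 0.07), and the corepressor Tle4 was called lower (-0.39).

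Genes of ependymal cells, the ciliated cells that line the ventricle, were far lower in the CA1 libraries. All 7 tested markers were called lower in CA1 (median -3.02), and for 6 of them the groups did not overlap. Hydin, a protein of the ciliary axoneme, ranged from 53.1 to 148 rescaled counts in CA1 (median 106) and from 343 to 738 in CA3 (median 589). Tmem212, Ccdc153 and Dnah11, a ciliary dynein chain, differed by -3.87, -3.02 and -2.32. Of the 10 genes taken for size among those lower in CA1, Cfap44, Cfap161, Ak7 and Wdr63 are also known as parts of motile cilia. The summed level of the list was 157 to 368 in CA1 (median 253) and 859 to 1804 in CA3 (median 1500). Choroid plexus genes went partly the same way, with 4 of 8 called lower in CA1, among them Folr1 (-2.62 ± 0.24) and Clic6 (-2.39 ± 0.26). Ttr, the most abundant choroid plexus transcript, was not called, and ranged from 11.5 to 1708 in CA1 (median 137) and from 28.1 to 5957 in CA3 (median 192). Without rat 3338 it was called lower in CA1, at -1.09. The part of ventricular lining in the differences between CA1 and CA3 was not tested.

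Myelin genes were also lower in CA1. All 14 tested markers of mature oligodendrocytes were called lower in CA1, with differences from -0.89 to -0.26 and a median of -0.58, and for Gjb1 alone the groups did not overlap. Gjb1, a connexin of oligodendrocyte gap junctions, ranged from 366 to 612 rescaled counts in CA1 (median 537.5) and from 666 to 916 in CA3 (median 764), a difference of -0.60 ± 0.09. Of 10 markers of oligodendrocyte precursors 5 were called lower in CA1, Sox10 and Olig2 among them (-0.35 and -0.37). Cspg4 was called higher (0.17), though not with the deposited size factors (0.08). In rats 3593 to 3598 alone 2 precursor markers were called higher and 2 lower in CA1. Genes of cholesterol synthesis and uptake went the same way as the myelin genes: 18 of 23 were called lower and 1 higher in CA1 (median -0.37). Sqle, squalene epoxidase, and Hmgcs1, which makes the precursor of mevalonate, were lower in CA1 by 0.74 and 0.54 on the log2 scale without overlap. The gene called higher was Cyp46a1, the neuronal enzyme that converts cholesterol for export from the brain (0.45).

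Vessel and other glial markers were mostly higher in CA1, by less. Among 9 mural cell markers 8 were called higher in CA1 and 1 lower (median 0.47), and 6 of 9 endothelial, 9 of 14 astrocyte and 6 of 12 microglial markers were called higher with 0 lower. Over all genes tested 23.6% were called higher and 23.9% lower in CA1. Under the deposited size factors 2 of the astrocyte markers were called lower in CA1. Notch3, the receptor of mural cells, differed by 0.68 ± 0.08, Cldn5 of endothelial tight junctions by 0.51 ± 0.08, Aldoc of astrocytes by 0.43 ± 0.06 and C1qc of microglia by 0.42 ± 0.07. Their groups overlapped, while Vwf, made by endothelium, ranged from 959 to 1357 in CA1 and from 607 to 953 in CA3. Of 17 interneuron markers 9 were called higher and 2 lower in CA1. Vip, a peptide of interneurons that target other interneurons, ranged from 223 to 416 in CA1 (median 326) and from 101 to 173 in CA3 (median 132). Pvalb and Sst, of basket and dendrite-targeting cells, differed by 0.64 and 0.61, and Cnr1, the cannabinoid receptor, by -0.41.

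**Figure D3:**
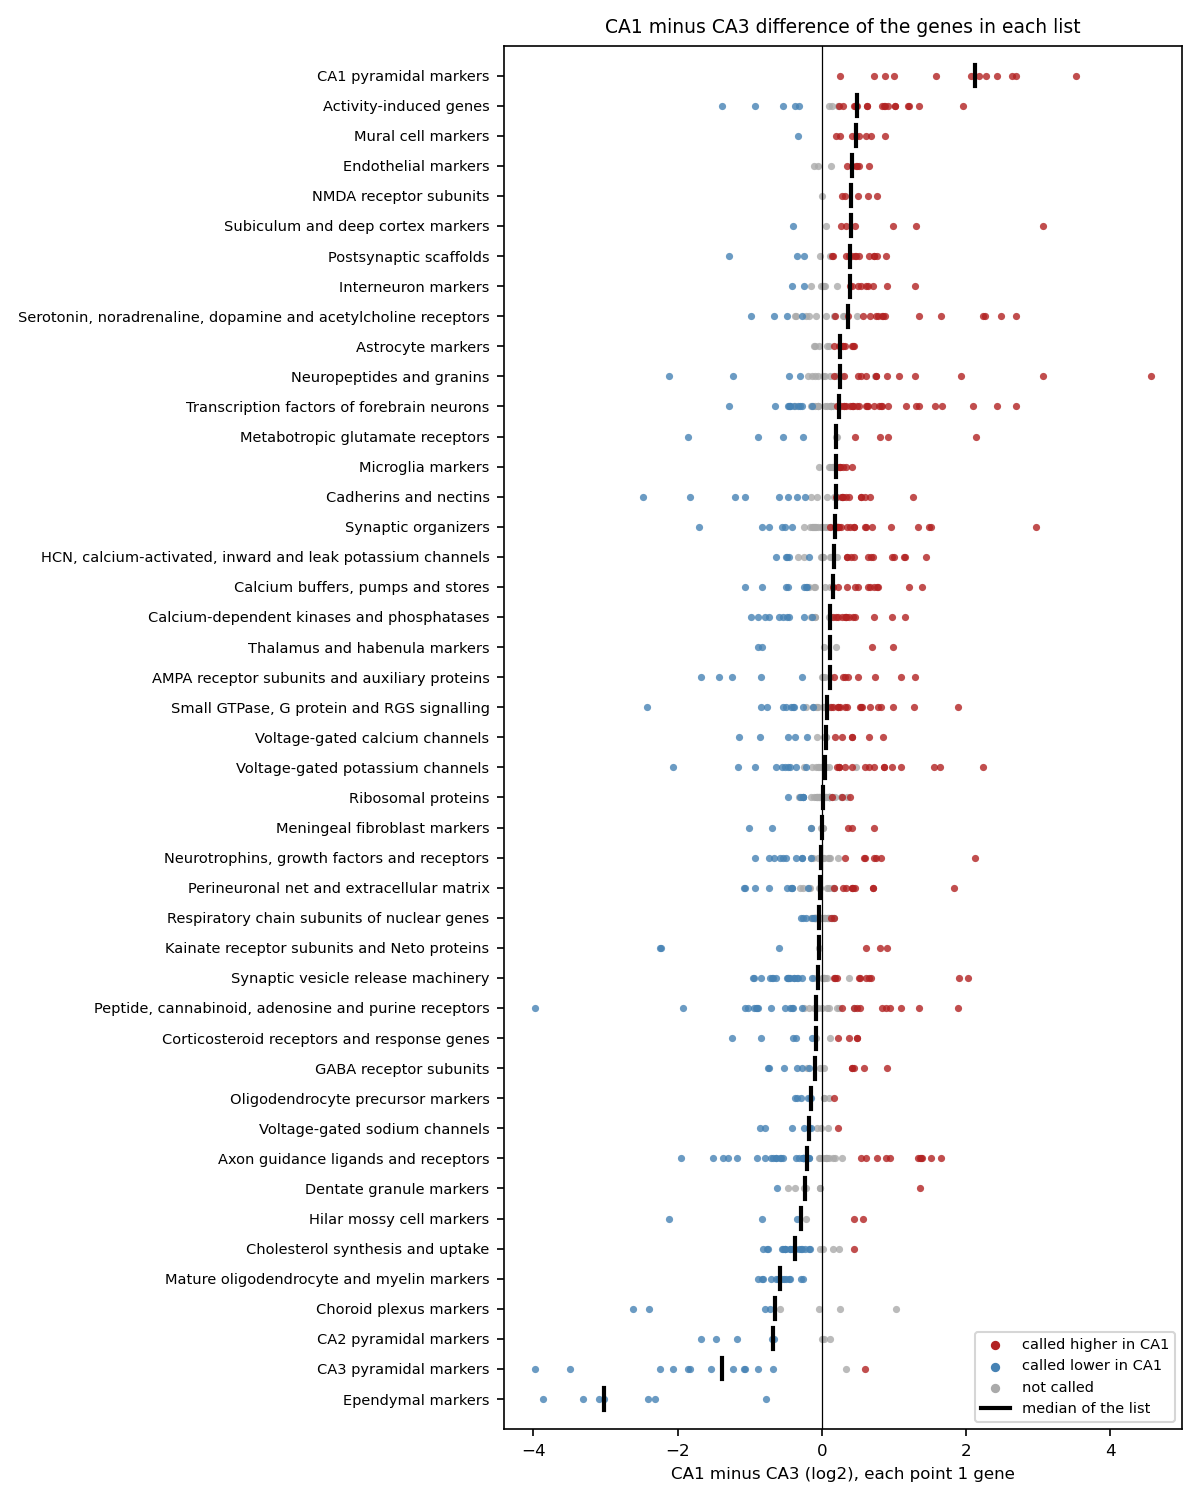
CA1 minus CA3 difference (log2) of every tested gene in each list with at least 5 tested genes. Each point is a gene, coloured where it was called, and the black bar is the median of the list. CA1 markers stand furthest to the right (median 2.12) and ependymal markers furthest to the left (median -3.02).

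Glutamate receptor genes split within families. Kainate receptors, which mossy fibre synapses of CA3 use, differed in both directions: Grik4, Neto1 and Grik2 (-0.59) were called lower in CA1, and Grik3 (0.91), Neto2 (0.81) and Grik1 (0.61) were called higher. Neto1 ranged from 481 to 832 rescaled counts in CA1 (median 699) and from 2859 to 3667 in CA3 (median 3119). The paralogue Neto2 went the other way, from 254 to 435 in CA1 (median 349) and from 134 to 247 in CA3 (median 188). In neither gene did the groups overlap. For AMPA receptors, 8 of 17 genes were called higher and 5 lower in CA1, and the pore subunits differed little (Gria1 0.17, Gria3 0.37, the other two not called). The larger differences lay in auxiliary proteins and pentraxins. Cacng3 (1.09), Cnih3 (1.30) and Shisa7 (0.74) were higher in CA1, and Cacng5, Shisa6 (-0.85), Nptx1 (-1.43) and Nptxr (-1.24) were lower. Nptx1, a pentraxin that gathers AMPA receptors, ranged from 5778 to 10493 in CA1 (median 7453) and from 17164 to 24281 in CA3 (median 20372).

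Of 6 NMDA receptor subunits 5 were called higher in CA1 (median 0.41), including Grin2c (0.64), Grin2b (0.51) and Grin2a (0.28), and the obligatory subunit Grin1 was not called (0.01 ± 0.05). The Grin1 range was 12627 to 18874 rescaled counts in CA1 and 13298 to 17340 in CA3. Metabotropic receptors and their Homer scaffolds split evenly, 4 called higher and 4 lower of 10. Grm8, a presynaptic group III receptor, ranged from 56.04 to 273 in CA1 (median 179) and from 12.1 to 58.3 in CA3 (median 37.2). Of the scaffolds Homer3 was lower in CA1 while Homer2 (0.81) and Homer1 (0.46) were higher. Among 18 postsynaptic scaffolds 13 were called higher in CA1 and 3 lower (median 0.40), with Shank1 at 0.89, Dlgap3 at 0.73 and Dlg4, which encodes PSD-95, at 0.65. Actn2, an actinin of spines, was the exception furthest from 0, at -1.29 ± 0.06.

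GABA receptor subunits were divided, 5 of 14 called higher and 6 lower in CA1. The alpha subunits Gabra5 and Gabra2 were lower in CA1 (both -0.74). Gabra5, which serves tonic inhibition of pyramidal cells, ranged from 1285 to 1970 rescaled counts in CA1 (median 1753) and from 2687 to 3213 in CA3 (median 2894). The metabotropic pair Gabbr1 and Gabbr2, which work as a heterodimer, stood at 0.42 and -0.53.

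Ion channels likewise differed gene by gene. Of 39 voltage-gated potassium channel genes 15 were called higher and 10 lower in CA1, beside 23.6% and 23.9% of all genes tested. Kcnh3, a channel of the ether-a-go-go family, ranged from 2038 to 3831 in CA1 (median 2954) and from 675 to 1617 in CA3 (median 1029), and its relative Kcnh1 ran the other way, from 577 to 938 in CA1 (median 745) and from 1271 to 1610 in CA3 (median 1412). Kcnf1, a silent subunit that forms channels only with other subunits, was higher in CA1 by 2.23 ± 0.16. Kcna1, an axonal subunit, differed by -1.16 ± 0.08. In the group of HCN, calcium-activated, inward rectifier and leak channels 12 of 26 were called higher and 5 lower. The leak channel Kcnk3 (1.45), the sodium-activated Kcnt1 (1.14) and Pex5l, the HCN partner known as TRIP8b (0.996), were higher in CA1. Among 11 sodium channel genes 7 were called lower and 1 higher in CA1. Fgf13, a modulator of these channels, ranged from 1986 to 2717 in CA1 (median 2200) and from 3641 to 4363 in CA3 (median 3954), and Scn2a differed by -0.41 ± 0.05.

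In calcium channels 6 of 15 were called higher and 5 lower in CA1. The L-type subunit Cacna1c was lower in CA1 (-1.15 ± 0.07) and the T-type subunits Cacna1g and Cacna1h were higher (0.85 and 0.65). Of 25 genes of calcium buffers, pumps and stores 12 were called higher and 7 lower in CA1, beside 23.6% and 23.9% of all genes tested. Ryr2, a ryanodine receptor, ranged from 4111 to 6836 rescaled counts in CA1 (median 5346) and from 9506 to 12345 in CA3 (median 10728). The inositol trisphosphate receptors Itpr1 (0.72) and Itpr3 (1.21) and the kinase Itpka (1.39), which phosphorylates their ligand, were higher in CA1, all without overlap. Of 28 calcium-dependent kinases, phosphatases and related enzymes 13 were called higher and 10 lower. Prkca stood at -0.99, its relative Prkce at -0.79 and the adenylyl cyclase Adcy8 at 1.15.

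Of 38 genes of transmitter release 18 were called lower in CA1 and 10 higher. Differences of both signs were equally many, 19 above and 19 below 0, and their median was -0.05. Syn2, a synapsin of the vesicle surface, ranged from 2834 to 4374 in CA1 (median 3980) and from 6405 to 8393 in CA3 (median 7178). Snap25, a fusion protein of the plasma membrane, and Cplx2, which clamps fusion, differed by -0.71 and -0.84 without overlap. Doc2b, a high-affinity calcium sensor, was the largest exception, from 925 to 1718 in CA1 (median 1030) and from 166 to 520 in CA3 (median 251).

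Adhesion and guidance genes held some of the widest gaps. In the list of axon guidance ligands and receptors 26 of 47 were called lower in CA1 and 11 higher (median -0.20). Slit2, a repellent ligand, ranged from 220 to 552 rescaled counts in CA1 (median 366) and from 1125 to 1685 in CA3 (median 1359). Nrp2, a semaphorin receptor, ranged from 525 to 1099 in CA1 (median 678) and from 1788 to 2396 in CA3 (median 2053). The semaphorin Sema3c and the netrin receptor Unc5c differed by -1.37 and -1.31. Plxnd1, another semaphorin receptor, was higher in CA1, from 981 to 1498 in CA1 (median 1287) and from 299 to 652 in CA3 (median 374). Of 25 cadherins and nectins 11 were called higher and 8 lower. Cdh9, a cadherin of mossy fibre contacts in mouse, ranged from 48.7 to 168 in CA1 (median 93.6) and from 435 to 660 in CA3 (median 507), and Cdh22 went the other way (1.27 ± 0.08). Among 42 synaptic organizers 21 were called higher and 6 lower in CA1, and 14 and 10 with the deposited size factors. C1ql3 (1.34) and Flrt1 (0.70) were higher with Adgrl2, and Flrt3, a latrophilin ligand, was lower (-1.70 ± 0.13).

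In the list of forebrain transcription factors 27 of 53 were called higher in CA1 and 11 lower (median 0.23), and for 13 of them all CA1 libraries lay above all CA3 libraries. Besides Pou3f1 and Fezf2, Bcl11b, a zinc finger factor of deep-layer and hippocampal neurons, ranged from 2256 to 3624 in CA1 (median 2978) and from 810 to 1658 in CA3 (median 1174). Etv1 and Etv5, factors of the ETS family, differed by 1.17 and 0.79. St18, a zinc finger factor, was the one furthest below 0, at -1.29 ± 0.09.

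Genes induced by neuronal activity were higher in CA1 for 18 of 26 members and lower for 5 (median 0.48). Arc, which regulates AMPA receptor uptake, ranged from 3480 to 10014 rescaled counts in CA1 (median 5587) and from 1696 to 3346 in CA3 (median 2429). Egr1, an early zinc finger factor, ranged from 2961 to 6881 in CA1 (median 4646) and from 1347 to 2500 in CA3 (median 2004). Nr4a1, an orphan nuclear receptor, and Sik1, a kinase, were higher in CA1 by 1.35 and 1.01, and in these 4 genes the groups did not overlap. Fos, the most used marker of recent activity, stood at 193 to 477 in CA1 (median 281) and 184 to 380 in CA3 (median 256), a called difference of 0.24 ± 0.08 with overlapping groups. The call was lost without rat 3339 or rat 3341 (0.20 each) and with the deposited size factors (0.15). It was also lost with no block for the rat (adjusted p = 0.183, limma), with the rat as a random block (adjusted p = 0.153, limma) and in rats 3593 to 3598 alone, at a difference of 0.18. Bdnf and Ptgs2 ran against the list. Bdnf, a neurotrophin, ranged from 328 to 525 in CA1 (median 408) and from 680 to 1011 in CA3 (median 779). Ptgs2, the inducible cyclooxygenase, ranged from 272 to 583 in CA1 (median 358) and from 850 to 1170 in CA3 (median 945).

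The 250 bases before the start of the activity-induced genes were searched for 2 sets of letters on both strands: TGACGTCA, the cyclic AMP response element bound by CREB, and ATGCAAAT, the octamer bound by POU-domain factors, to which class Pou3f1 belongs. Sequences came from RefSeq on GRCr8, where 21 of the 26 genes had an entry, as did 10727 of the genes tested. TGACGTCA stood before Dusp1, Ier2 and Btg2, which is 14.3% of the 21, beside 2.84% of all. ATGCAAAT stood before Egr2 alone, 4.76%, beside 1.2% of all. The sequences of the 3 genes called higher in CA1 are shown because their letters can be read beside their levels; they were chosen after their values were seen, and the capitals mark the letters found.
Dusp1 (chr10:17184603-17184852, plus strand): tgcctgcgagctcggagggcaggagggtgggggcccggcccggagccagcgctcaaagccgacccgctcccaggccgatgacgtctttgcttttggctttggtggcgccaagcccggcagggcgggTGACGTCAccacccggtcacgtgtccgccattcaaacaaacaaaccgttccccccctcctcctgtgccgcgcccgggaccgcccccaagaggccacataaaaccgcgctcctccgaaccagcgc
Ier2 (chr19:40399123-40399372, plus strand): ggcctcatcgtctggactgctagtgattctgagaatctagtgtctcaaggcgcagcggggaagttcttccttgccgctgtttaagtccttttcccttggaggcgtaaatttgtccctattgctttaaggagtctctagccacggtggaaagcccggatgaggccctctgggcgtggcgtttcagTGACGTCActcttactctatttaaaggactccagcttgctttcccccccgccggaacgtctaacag
Egr2 (chr20:21054442-21054691, minus strand): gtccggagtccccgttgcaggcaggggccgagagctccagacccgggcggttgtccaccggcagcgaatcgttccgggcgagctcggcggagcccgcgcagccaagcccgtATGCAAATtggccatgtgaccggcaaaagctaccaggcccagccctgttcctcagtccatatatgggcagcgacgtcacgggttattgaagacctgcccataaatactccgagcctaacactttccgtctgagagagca

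The genes behind these sequences differed in size of effect. Egr2, an early zinc finger factor, ranged from 168 to 533 rescaled counts in CA1 (median 264) and from 35.3 to 143 in CA3 (median 66.9), a difference of 1.95 ± 0.17 without overlap. Dusp1, a phosphatase of MAP kinases, ranged from 392 to 939 in CA1 (median 479) and from 275 to 605 in CA3 (median 334), with overlapping groups and a difference of 0.63 ± 0.07. Ier2 differed by 0.47 ± 0.11, and Btg2 was not called although its sequence holds the letters too (0.14 ± 0.08). Among genes called at 2-fold or more, ATGCAAAT stood before 1.52% of those higher in CA1 and 2.43% of those lower in CA1, and TGACGTCA before 3.55% and 1.74%. A match of letters describes the sequence and does not show that a factor binds there.

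Receptors for modulatory transmitters differed in both directions. Of 29 receptors for serotonin, noradrenaline, dopamine and acetylcholine 15 were called higher and 4 lower (median 0.36), and 13 and 7 with the deposited size factors. Drd5, a D1-class dopamine receptor, ranged from 44.3 to 149 rescaled counts in CA1 (median 116) and from 8.15 to 38.7 in CA3 (median 15.2). Htr5b, a serotonin receptor, ranged from 708 to 1254 in CA1 (median 957) and from 123 to 350 in CA3 (median 177). The nicotinic subunits Chrna5 (2.48) and Chrna4 (1.35), the adrenergic receptor Adra2c (1.65) and the muscarinic receptor Chrm4 (0.83) were also higher in CA1 without overlap. Receptors for peptides, cannabinoids, adenosine and purines were mixed, 10 of 35 called higher and 14 lower, beside 23.6% and 23.9% of all genes tested. The somatostatin receptors parted, with Sstr2 (1.35) and Sstr4 (0.95) higher and Sstr3 (-1.02) lower in CA1. Gipr, the receptor of an incretin peptide, ranged from 177 to 394 in CA1 (median 238) and from 51.0 to 101 in CA3 (median 67.1). Adora1, the main adenosine receptor of the hippocampus, differed by -0.44 ± 0.05.

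Calls among ribosomal and respiratory chain genes varied with the rats tested. Of the ribosomal list, 8 of 42 genes were called, 3 higher and 5 lower in CA1 (median 0.02), beside 47.5% of all genes tested, and 7 of 40 nuclear-encoded respiratory chain subunits, 2 higher and 5 lower (median -0.04). The respiratory chain counts became 0 higher and 13 lower with the deposited size factors, and the ribosomal counts 1 and 7. At 12 months 20 ribosomal genes were called higher in CA1 and 0 lower, and 8 respiratory chain genes higher and 2 lower. In rats 3337 to 3342 alone 7 ribosomal genes were called higher and 9 lower, and 5 respiratory chain genes higher and 14 lower. In rats 3593 to 3598 alone the counts were 8 and 2 for the ribosomal list and 3 and 3 for the respiratory chain. Without rat 3337 the calls lower in CA1 were 2 for each list, and without rat 3598 the calls higher in CA1 were 8 for the ribosomal list. Of 29 genes of the perineuronal net and matrix 10 were called higher and 9 lower, with the proteoglycan Acan at -1.07 ± 0.13 and the collagen Col5a1 at 1.83 ± 0.11.

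The 12 rats differed in how far their libraries stood apart. Averaged over the list, CA1 markers differed by 1.06 in rat 3593 and by 2.73 in rat 3594, and CA3 markers by -1.23 in rat 3598 and -1.69 in rat 3594. Set against the mean of the other rats across genes, the slope of a rat's differences was between 0.68 (rat 3598) and 1.03 (rat 3597). Myelin markers varied from -1.18 in rat 3340 to -0.07 in rat 3598, and ependymal markers from -3.51 to -1.37. Dentate granule markers were higher in CA1 in some rats and lower in others, between -1.04 in rat 3597 and 0.62 in rat 3595. Their mean includes Sema5b, which was lowest in DG. As a mean over the list, choroid plexus markers were higher in CA1 in rat 3338 alone (1.37). Their summed level was lower in CA1 in all 12 rats. Ttr had within-rat differences from -3.98 to 5.05, and B4gat1, a glycosyltransferase gene, from -1.36 to 5.97.

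**Figure D4:**
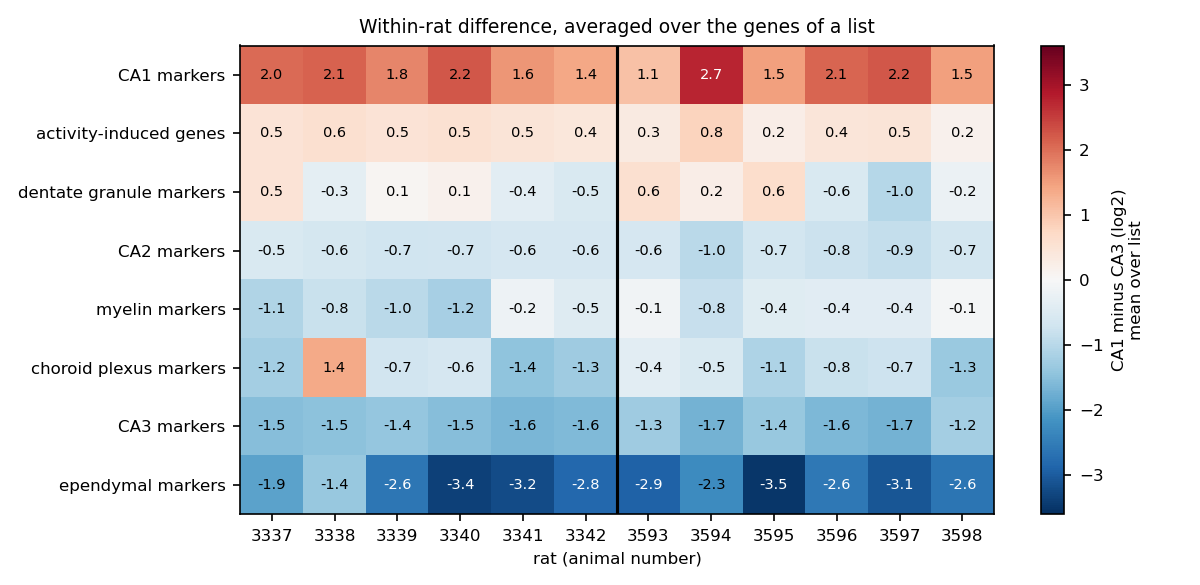
Within-rat CA1 minus CA3 difference (log2), averaged over the tested genes of 8 lists (rows) in each of 12 rats (columns, by animal number). The black line parts animals 3337 to 3342 from 3593 to 3598. CA1 markers are positive and CA2, CA3, myelin and ependymal markers negative in all 12 rats, and dentate granule markers take both signs.

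The animal numbers fall into 2 runs, 3337 to 3342 and 3593 to 3598, with 6 rats in each, which the labels do not call batches. Tested alone, the first run gave 6516 calls (44.6%; 22.1% higher and 22.6% lower in CA1) and the second 4587 (31.4%; 15.8% higher and 15.6% lower). In the same direction 3139 genes were called in both runs, and 111 were called in opposite directions. Of the 709 genes called at 2-fold or more, 663 were called in both runs in the same direction. The 709 were picked by their pooled difference over the rats of both runs, so this count is no independent check. The difference between the runs was tested itself, a comparison added after the data were seen, and was called for 774 genes (5.3%). Their median pooled difference was 0.22 in size, and 14 of them were among the 709. CA1 libraries of the first run had a median of 10.5% mitochondrial reads and those of the second 6.62%, and the medians of the myelin difference were -0.89 and -0.41. The part of these in the run differences was not tested.

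At 12 months, 7347 of 14654 genes were called (50.1%) in 16 other rats. Of the calls at 12 months 72.9%, and of those at 5 months 77.2%, were called at both ages in the same direction, 5355 genes in all, and 14 in opposite directions. Of the 709 genes at 2-fold or more, 696 were tested at 12 months and 667 were called there in the same direction. Across 14505 genes tested at both ages the differences had a Pearson r of 0.92, given as a description since genes are not independent. Nov differed by 2.24 at 12 months and 2.27 at 5 months, Kcnq5 by -2.001 and -2.07, Nxph3 by 4.11 and 4.57, Cpne4 by -3.18 and -3.49 and Egr2 by 1.96 and 1.95. The difference between ages was called for 0 of 14602 genes (0.0%) by limma, with 1468 at an unadjusted p under 0.05 and a lowest adjusted p of 0.0655. Gipr was among the smallest p, at 0.86 at 12 months and 1.89 at 5 months. Adding the run as a term brought 30 genes past the threshold, 24 with a more positive difference at 12 months. A lack of calls does not show that the ages are alike.

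**Figure D5:**
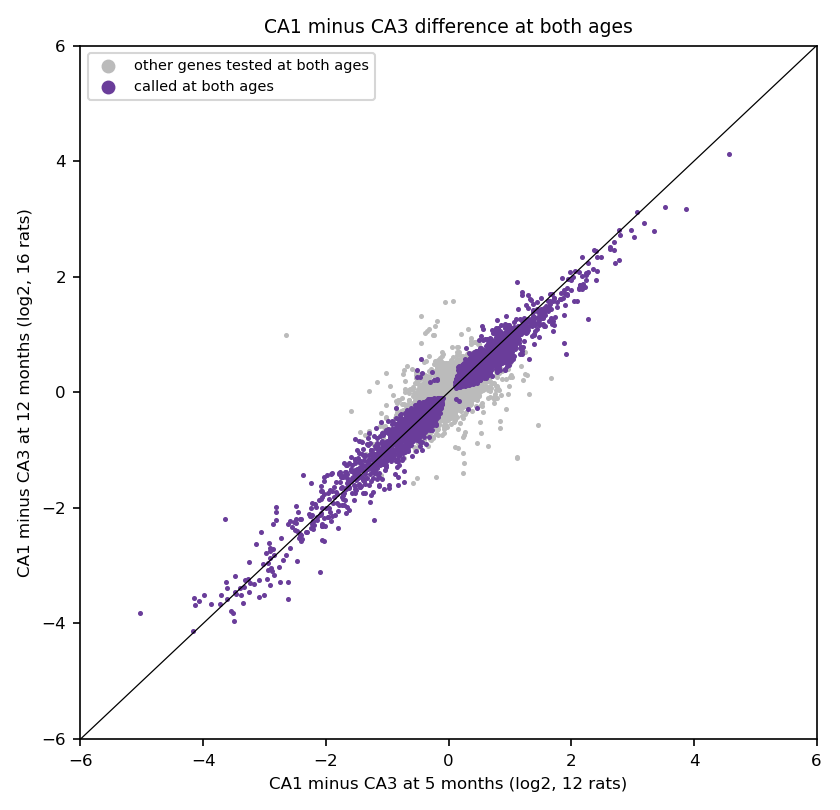
CA1 minus CA3 difference (log2) at 12 months in 16 rats (vertical axis) against 5 months in 12 rats (horizontal axis). Each point is 1 of 14505 genes, purple where called at both ages, and the line marks equal differences. The points lie along the line, with r = 0.92.

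The dentate gyrus of the same rats gave no common position for these genes. Of 283 genes 2-fold or more higher in CA1 that the DG table also holds, the DG median was below both fields for 111, between them for 140 and above both for 32. Of 374 lower in CA1 it was below both for 128, between for 182 and above both for 64. Nov had medians of 6145 in CA1, 1221 in CA3 and 533 in DG. Cpne4 had 602 in CA1, 7203 in CA3 and 4271 in DG. Bcl11b had 2947 in CA1, 1162 in CA3 and 3257 in DG, and Nptx1 had 7374, 20189 and 26059 in the same order.

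Genes listed in a single table could not be compared. Their levels here are the deposited values, scaled by the authors in each table separately, and not rescaled counts. The CA1 table alone held 207 symbols, with Cftr, an anion channel gene, at the highest median (83.0, range 19.0 to 139). Another 360 stood in the CA3 table alone, led by Tmem215 (median 543, range 454 to 726). Next in order of median were Spag17 (63.9), Hcrt, the precursor of the orexin peptides (53.1), Cfap206 (46.9) and Daw1 (42.9), of which Spag17, Cfap206 and Daw1 are known for motile cilia. No level in the other field is given for them here.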

How the data were processed

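RNA from CA1 and CA3 of 12 rats aged 5 months was compared, and DG libraries and those of 16 rats aged 12 months were used beside them. Per the labels, RNA was polyA RNA from 1 hemisphere. Build rn6, STAR 2.5.3a, Partek and DESeq2 3.5 appear in the submitters' processing notes, with no order or settings. Neither strand nor annotation is given in the sources used here, so reads of overlapping, antisense or near-identical genes may be mixed. The deposited signal values are gene counts that the authors divided by 1 size factor per library: 100% of values up to 1000 reads were whole multiples of a step, within 0.1 read. Whole reads were recovered from these steps, and the edgeR count test on them called 6877 genes. Intervals and tests cover the spread between these rats only.

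Symbols in both tables were kept, columns were rescaled together by the median of ratios, and genes that reached 10 in 12 or more of the 24 libraries entered the test on log2(value + 1) with limma 3.58.1 in R 4.3.3 (trend, rat as a fixed block, 2-sided, Benjamini-Hochberg over all genes tested). Fold changes on this scale understate those of low genes. At 12 months the minimum held in 16 of 32 libraries. The tests between ages and between runs used limma on the within-rat differences, without the trend and without a block. For the test between ages the columns of both ages were rescaled together. The fit was tested on simulated data. Pairs come from the animal number in the titles, which marks the same rat. Deviations of same-rat libraries correlated between -0.08 and 0.24 (median 0.10). The median was -0.01 for different rats and 0.07 for different rats of the same run. Of 12 CA1 libraries, 4 correlated best with their own rat. For CA3, 1 column bears the number 3675 without the subregion and was taken as that rat's CA3 library, at 12 months only.

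The members, the 46 gene lists and the tests were chosen with earlier results of these data known. Named genes are, per direction, the 14 called genes with the smallest p and 10 more with the largest difference (mean of at least 50, no gene models), up to 6 genes of each list by p, all markers of the hippocampal fields, the 8 most variable genes over rats and those with the smallest p by age. Chosen after their values were seen were Egr2, Dusp1, Ier2, Btg2, Fos, Gria1, Gria3, Cnih3 and Cyp46a1. Alternatives were other pseudocounts (0.5 and 5), filters, scalings and blocks, DESeq2 1.42.0 and edgeR 4.0.16 run on the recovered reads, a minimum fold, each run of animal numbers and leaving out each rat. No enrichment test was run. A few named genes are left out here.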

Additional observations from a re-analysis of the deposited data

How the results depend on the processing

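The 6935 genes called at 5 months became 6928 and 6949 with pseudocounts of 0.5 and 5, 6985 without a filter and 6319 at a minimum of 50, and 7413, 6931 and 7045 with the deposited, TMM and quantile scalings. Leaving out the pairing by rat (no replicate block) gave 6757, the rat as a random block 7035, edgeR 6877 and DESeq2 6933 on recovered reads. The count fell most with a minimum fold of 1.5, to 710 (307 higher and 403 lower in CA1), and in rats 3593 to 3598 alone, to 4587 (2274 lower in CA1). Leaving out each rat gave 6325 to 7099 calls, 3129 to 3499 of them higher and 3196 to 3600 lower in CA1. Calls kept in each of these 12 fits numbered 5827, and 705 of the 709 at 2-fold or more. At 12 months the 7347 calls became 6977 with no replicate block, 7332 with TMM, 7321 with edgeR and 6949 without rat 3675. The difference by age was called for 0 genes with TMM and for 30 with a term for the run. Of the genes named in the text 155 were called, and 151 kept their direction and call in all alternatives but the minimum fold and the single runs. Those not called that changed sign were Rgs14, at -0.0048 in rats 3593 to 3598, and Grin1, at -0.081 with the deposited scaling, -0.039 in rats 3593 to 3598 and -0.0082 to 0.030 when single rats were left out. The causes were not tested. Depth limits the genes of a few counts, such as Bhlhe23 and Tacr2 in CA1.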
